A study of Mus musculus with 96 samples.

Results

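The 10 genes described here encode neuropeptides that classically mark neurons of the hypothalamus: Oxt, Avp, Pomc, Agrp, Npy, Hcrt, Pmch, Crh, Trh and Sst. They were chosen by name, as the entries of the deposited gene table that carry one of these symbols, and all 10 were found among its 32594 genes. Their levels were followed in the ipsilateral hypothalamus, thalamus and hippocampus of mice killed 3 or 29 days post-injury (dpi). Bulk mRNA was sequenced from 4 mice per group, in 24 groups and 96 libraries. All mice were adult male C57BL/6 of 8 to 10 weeks. TBI mice received a controlled cortical impact over the left cortex, whereas Sham mice had anesthesia and scalp excision without a craniectomy, so the impact and the craniectomy cannot be told apart. Candesartan (CD), a blocker of the angiotensin II type 1 receptor, or vehicle (VH) was given at 0.1 mg/kg/day. The 3 dpi cohort had intraperitoneal injections at 6, 24 and 48 h, and the 29 dpi cohort had an injection at 6 h and an osmotic pump from 24 h. Vehicle groups are written Sham + VH and TBI + VH, and candesartan groups Sham + CD and TBI + CD.

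Neuropeptides are made as larger precursors, cut and amidated in secretory granules, and released from small groups of neurons that lie in separate hypothalamic nuclei. Oxytocin and vasopressin come largely from the paraventricular and supraoptic nuclei, and corticotropin-releasing hormone and thyrotropin-releasing hormone in part from the paraventricular nucleus. Between them they govern water balance and the pituitary. The arcuate nucleus at the base of the hypothalamus holds Pomc neurons, which restrain feeding, and Agrp/Npy neurons, which drive it, while Hcrt (orexin) and Pmch (melanin-concentrating hormone) neurons of the lateral hypothalamus act on arousal and energy use. Because each nucleus is small, the level of such a gene in a bulk library also depends on how much of that nucleus was dissected. In bulk RNA, fewer cells of a type and less RNA per cell cannot be told apart.

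Libraries held 6663629 to 38589791 counts (median 24708356), and levels are given as CPM, which are counts scaled to a fixed library total and corrected for library composition. In these marker genes each region was highest where its label placed it, although hypothalamic genes also appeared in thalamic libraries and pituitary genes in some libraries of each region. Nkx2-1, a transcription factor of the ventral hypothalamus, had a median of 23.1 and 27.3 CPM in the hypothalamus at 3 and 29 dpi, 2.07 and 1.82 CPM in the thalamus, and 0.394 and 0.305 CPM in the hippocampus. The summed level of 9 thalamic neuron markers was 379 to 742 CPM over the hypothalamic libraries and at least 2031 CPM in every thalamic library. The summed level of 9 hippocampal neuron markers was 152 to 188 CPM in the hypothalamus and at least 697 CPM in the hippocampus.

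The first comparison asked where each peptide gene was expressed. Oxt, Avp, Trh, Hcrt and Pmch were far higher in the hypothalamus than in the hippocampus, and they were also present in the thalamic dissections. Npy and Sst, which interneurons outside the hypothalamus also express, were the 2 members highest in the hippocampus. Agrp was close to absent outside the hypothalamus, with at most 6 counts in any hippocampal library and at most 7 in any thalamic library.

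Oxt (chr2:130576173-130577054, plus strand, mm10) encodes the precursor of oxytocin, the hormone of parturition and milk ejection. In the hypothalamus it ranged over the 16 libraries from 83.4 to 274 CPM at 3 dpi (median 215) and from 81.3 to 208 CPM at 29 dpi (median 168). In the hippocampus its median was 0.296 and 0.166 CPM. No hippocampal library reached the lowest hypothalamic one. Avp (chr2:130580620-130582554, minus strand) encodes the precursor of vasopressin, the antidiuretic hormone. It ranged from 85.2 to 447 CPM in the hypothalamus at 3 dpi and from 187 to 348 CPM at 29 dpi, against medians of 12 and 9.16 CPM in the thalamus and 0.722 and 0.576 CPM in the hippocampus. Every hypothalamic library lay above every thalamic and hippocampal one.

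The Oxt and Avp genes are neighbors that point toward each other, with 3565 bases between their 3′ ends, and both encode a neurophysin carrier protein. A script found that the reference transcripts of the 2 genes share an identical coding run of 127 bases in the neurophysin part. It is shown because sequencing reads that lie wholly inside it cannot be assigned to one gene by sequence, and it crosses an exon junction in both transcripts:
Oxt and Avp: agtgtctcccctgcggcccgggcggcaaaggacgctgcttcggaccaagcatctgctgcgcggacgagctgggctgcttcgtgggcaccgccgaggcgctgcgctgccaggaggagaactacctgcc
Of the 463 possible starts of a 75-base read in the Oxt transcript, 53 (11.4%) gave a read found whole in Avp. How the authors counted reads with several matches is not given in the sources used here, so a small part of the Oxt and Avp counts is uncertain.

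Trh (chr6:92242061-92244650, minus strand), the precursor of thyrotropin-releasing hormone, was with Sst one of the 2 most even members in the hypothalamus. Its hypothalamic range was 95.3 to 172 CPM at 3 dpi and 126 to 203 CPM at 29 dpi, and its medians in the thalamus were 11.2 and 8.95 CPM. Again every hypothalamic library was above every thalamic one. Crh (chr3:19693401-19695396, minus strand), the releasing hormone that starts the stress axis, was low everywhere. Its hypothalamic median was 3.99 CPM at 3 dpi and 4.98 CPM at 29 dpi, its thalamic median 1.46 and 1.27 CPM, and its hippocampal median 1.18 and 1.27 CPM. At 29 dpi all 16 hypothalamic libraries were above all thalamic and hippocampal ones, and at 3 dpi the ranges overlapped.

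Pomc (chr12:3954951-3960642, plus strand), the precursor of α-MSH in the arcuate nucleus and of ACTH in the pituitary, had a hypothalamic median of 34.7 CPM at 3 dpi and 36.4 CPM at 29 dpi. Its range was 3.25 to 172 CPM and 14.8 to 338 CPM over the 16 libraries of each time point. Npy (chr6:49822710-49829507, plus strand) encodes neuropeptide Y, which is made by the Agrp neurons and by interneurons elsewhere. Its median was 25.9 and 19.6 CPM in the hypothalamus, 6.26 and 6.33 CPM in the thalamus, and 42.4 and 33.8 CPM in the hippocampus. Agrp (chr8:105566698-105637393, minus strand) encodes the antagonist of melanocortin receptors that is largely confined to arcuate neurons. Its hypothalamic range was 0.0706 to 18.1 CPM at 3 dpi (2 to 462 counts) and 0.103 to 4.39 CPM at 29 dpi (3 to 150 counts).

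Hcrt (chr11:100761069-100762931, minus strand) encodes the orexins, the peptides of wakefulness, and Pmch (chr10:88091072-88092375, plus strand) the precursor of melanin-concentrating hormone. Hcrt ranged from 17.6 to 273 CPM in the hypothalamus at 3 dpi and from 24.5 to 132 CPM at 29 dpi. In the thalamus it ran from 0.0432 to 103 CPM and from 0.272 to 75.7 CPM, so the 2 regions overlapped at both time points. Pmch had hypothalamic medians of 384 and 369 CPM and thalamic medians of 238 and 219 CPM, beside hippocampal medians of 0.359 and 0.639 CPM. Sst (chr16:23889573-23890958, minus strand), the precursor of somatostatin, had medians of 131 and 126 CPM in the hypothalamus, 58.7 and 57.5 CPM in the thalamus, and 162 and 163 CPM in the hippocampus.

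**Figure D1:**
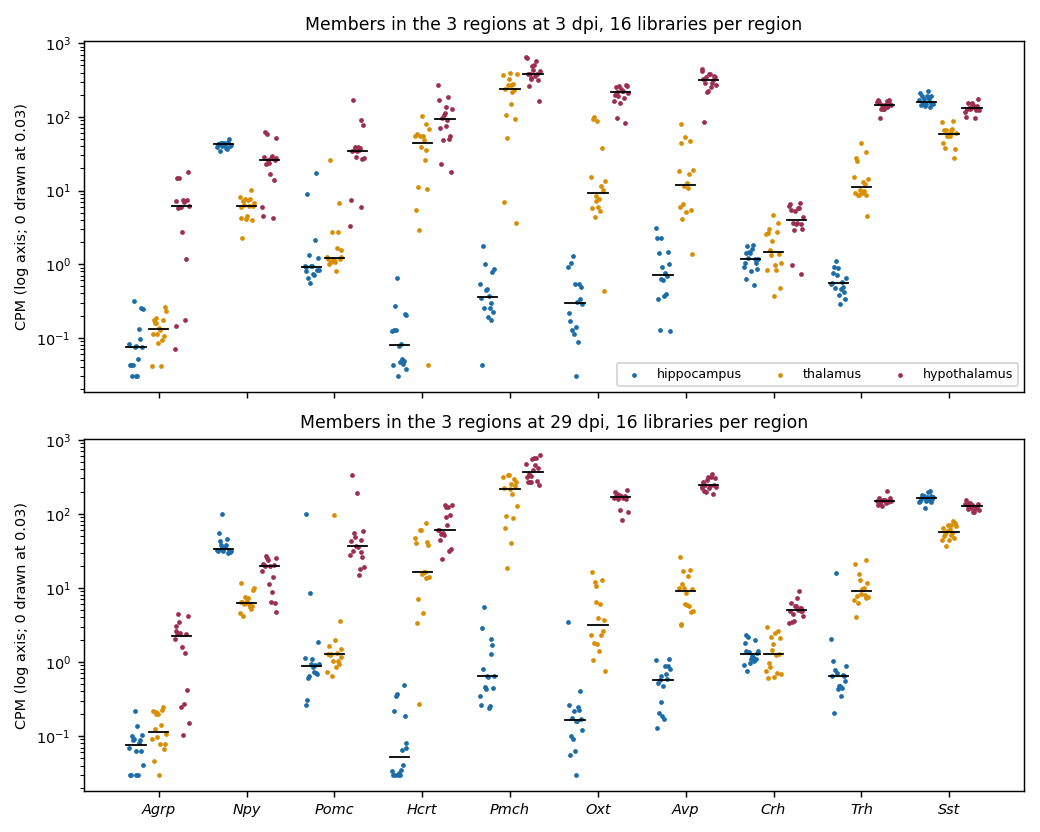
CPM of each of the 10 genes on a log axis in every library, by region and time point, with black bars at the medians of 16 libraries; a count of 0 is drawn at 0.03 CPM. Oxt, Avp, Hcrt, Pmch and Trh in the hypothalamus stand above all hippocampal libraries, while Npy and Sst have their highest medians in the hippocampus.

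Over all 4 treatment groups, the ranges of hypothalamus and hippocampus did not overlap for 5 of the 10 genes at 3 dpi (Oxt, Avp, Hcrt, Pmch and Trh, all higher in the hypothalamus), beside 30.1% of 17788 tested genes. At 29 dpi they did not overlap for 7 genes, these 5 and Crh higher and Npy lower in the hypothalamus, beside 29.2% of 17935 tested genes. Between hypothalamus and thalamus the ranges were apart for 3 genes at 3 dpi (Avp, Trh and Sst; background 16.8%) and for 5 at 29 dpi (also Oxt and Crh; background 18.9%). Between thalamus and hippocampus they were apart for 4 genes at each time point, with Npy and Sst lower in the thalamus, Pmch higher at both, Trh higher at 3 dpi and Avp higher at 29 dpi (background 24.7% and 24.1%).

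The regions were then tested within the Sham + VH mice with edgeR's quasi-likelihood test on counts, in a fit of all 48 libraries of a time point. To be called, a gene needed a false discovery rate (FDR) below 0.05 over all genes and an absolute log2 fold change above 0.32. At 3 dpi, 9 of the 10 genes were called between hypothalamus and hippocampus, 8 of them higher in the hypothalamus, beside 46.7% of 17788 genes called and 23.5% called higher. The log2 differences were 9.76 ± 1.38 (SE) for Hcrt, 9.38 ± 1.04 for Pmch, 8.17 ± 1.01 for Oxt, 7.65 ± 0.53 for Trh and 7.45 ± 0.82 for Avp. Those of Pomc (4.15 ± 0.98) and Crh (2.2 ± 0.53) were smaller, and that of Pomc was 2.29 without hypothalamic Sham + VH replicate 4 and 5.87 without hippocampal replicate 4. The size of the Agrp and Hcrt differences depends on the prior count of the fit, since hippocampal libraries held at most 12 counts of either gene. Neither gene passed the filter on low counts within the hippocampus. They entered this fit through other regions, so their calls restate their levels there. Sst was lower in the hypothalamus by 0.57 on the log2 scale, a call that was lost without hippocampal Sham + VH replicate 2 or hypothalamic Sham + VH replicate 2. Npy did not pass the test (log2 difference -0.71).

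At 29 dpi, 8 genes were called between these regions, 7 higher in the hypothalamus, beside 45% of 17935 genes called and 22.8% called higher. Agrp, Hcrt and Oxt did not pass the filter within the hippocampus at 29 dpi, and the limit given above holds for their calls. Avp differed by 8.50 ± 0.57 on the log2 scale and Crh by 1.44 ± 0.39. Npy was lower in the hypothalamus (-1.09), and Pomc (1.91 ± 0.96, FDR = 0.0852) and Sst did not pass. Hippocampal Sham + VH replicate 3 alone held 100 CPM of Pomc, and 9 genes were called without it.

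Between hypothalamus and thalamus, 8 genes were called at each time point, all higher in the hypothalamus, beside 28.6% of genes called (13.9% higher) at 3 dpi and 32.9% (17.4% higher) at 29 dpi. At 3 dpi the log2 differences of Avp (3.10), Trh (2.91), Sst (1.08) and Npy (2.28) were called in every fit that left out 1 Sham + VH library, that of Npy falling to 1.33 without hypothalamic replicate 4. With only the compared groups fitted, Avp, Trh and Sst were called and Npy was not (edgeR, FDR = 0.0507). Agrp (5.46) was called with all groups fitted. It did not pass the filter on low counts with only the compared groups, nor within the thalamus at either time point. Agrp entered the fit through hypothalamic libraries, so its call restates its level there. The calls of Oxt (1.72) and Hcrt (2.02) were lost with DESeq2, with FDR = 0.085 and 0.077. That of Oxt was also lost without thalamic Sham + VH replicate 1 or 2 or hypothalamic replicate 3, and that of Hcrt without thalamic replicate 2 or 4 or hypothalamic replicate 1 (1.40). The difference of Pomc was 2.84, 5.54 without thalamic Sham + VH replicate 4, and 0.98 without hypothalamic replicate 4, which ended its call. Crh (1.06) and Pmch (1.39) did not pass. At 29 dpi Pmch (1.03) and Hcrt (1.16) did not pass, while Pomc (6.53), Oxt (5.21), Avp (4.55), Trh (3.92) and Crh (1.83) were higher in the hypothalamus.

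Between thalamus and hippocampus, 7 genes were called at 3 dpi (background 40.9%) and 8 at 29 dpi (background 39.3%). Avp, Hcrt, Oxt, Pmch and Trh were higher in the thalamus at both time points, and Npy (-2.99 at 3 dpi and -2.56 at 29 dpi) and Sst (-1.65 and -1.63) were lower. The same limit holds for Hcrt, and at 29 dpi for Oxt, which did not pass the filter within the hippocampus. The difference of Pomc at 29 dpi (-4.62) turned to 0.60 without hippocampal Sham + VH replicate 3. That of Oxt at 29 dpi (1.91) was 5.59 without hippocampal Sham + VH replicate 1, and its call was lost without hippocampal Sham + VH replicate 2, 3 (1.23) or 4 or thalamic replicate 2 (0.49), and with the replicate number as a block (1.58, FDR = 0.0702).

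Per kilobase of exon, Pmch had the highest median level of the 10 genes in the Sham + VH hypothalamus, at 676 CPM per kb at 3 dpi and 445 CPM per kb at 29 dpi. Avp followed with 650 and 400 CPM per kb, Oxt with 339 and 321 CPM per kb, and Sst with 170 and 185 CPM per kb. Crh (4.42 and 3.15 CPM per kb) and Agrp (3.65 and 2.50 CPM per kb) were the lowest. The annotated Agrp gene spans 70696 bases and overlaps exons of other genes, so its length and its counts are uncertain. At 3 dpi no 2 neighbors in this order were apart in all 4 libraries, and at 29 dpi 5 neighboring steps were, among them Oxt above Sst, Hcrt above Npy and Pomc above Crh. Over all 16 libraries the median of Avp (555 CPM per kb) was above that of Pmch (513 CPM per kb) at 3 dpi, although Avp was the higher in only 6 libraries. Of the neighboring steps over 16 libraries at both time points 1 was apart, Pomc above Crh at 29 dpi.

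Inside the hypothalamus the genes differed in how even they were between mice. The coefficient of variation over the 16 libraries was lowest for Trh (13.3% at 3 dpi and 11.5% at 29 dpi) and Sst (14.7% and 10.7%). It was 27.9% and 20.9% for Oxt and 28.8% and 18.8% for Avp. Agrp (82.8% and 73.8%) and Pomc (94.9% and 131%) varied most. Npy (65.3% and 43.7%) and Hcrt (64.6% and 50.3%) came next, and Crh was at 43.4% and 28%.

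Agrp at 3 dpi was 0.0706, 0.144, 7.25 and 15 CPM in the Sham + VH mice and 5.79, 15, 5.99 and 6.06 CPM in the TBI + VH mice. It was 2.71, 7.34, 7.08 and 0.172 CPM in Sham + CD and 1.17, 7.5, 18.1 and 6.17 CPM in TBI + CD. The spread within a group was thus larger than between groups, and 3 libraries (Sham + VH replicates 1 and 2 and Sham + CD replicate 4) were near the level of the thalamus. At 29 dpi Agrp was 2.04, 3.07, 2.64 and 2.44 CPM in the Sham + VH mice and 4.39, 3.48, 2.43 and 0.245 CPM in the TBI + VH mice. It was 1.59, 0.103, 0.268 and 1.32 CPM in Sham + CD and 2.4, 0.419, 4.21 and 0.149 CPM in TBI + CD. All Sham + CD libraries lay below all Sham + VH libraries, in a comparison where 9% of all tested genes did not overlap. In all, 5 libraries, none of them Sham + VH, were below 1 CPM.

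Npy followed the same libraries. At 3 dpi it was 5.9, 4.5, 28.3 and 61.5 CPM in Sham + VH, 23.2, 58.8, 25.6 and 23.9 CPM in the TBI + VH group, 16.7, 27.5, 29.2 and 4.23 CPM in Sham + CD and 13.8, 26.2, 52 and 28 CPM in TBI + CD. The 3 libraries with the least Agrp had the least Npy. At 29 dpi it was 17, 21, 20.4 and 19.6 CPM in Sham + VH, 27, 25.3, 23.5 and 11.3 CPM in the TBI + VH group, 19.5, 6.53, 8.78 and 13.9 CPM in Sham + CD and 20.5, 6.18, 25.4 and 4.77 CPM in TBI + CD. The groups overlapped at both time points.

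Hcrt tended to run the other way. In the test of pairs given below, Npy with Hcrt passed at 3 dpi (r = -0.77), and in 7 of 16 fits without 1 library. Npy with Hcrt at 29 dpi and Agrp with Hcrt at either time point did not pass. At 3 dpi Hcrt was 273, 167, 70.7 and 22.8 CPM in Sham + VH, 95.7, 48.9, 108 and 112 CPM in the TBI + VH group, 75.4, 137, 90.6 and 187 CPM in Sham + CD and 50.3, 55.5, 17.6 and 126 CPM in TBI + CD. Its 2 highest Sham + VH libraries were the 2 with the least Agrp. At 29 dpi it was 60.4, 61, 43.9 and 53.8 CPM in Sham + VH, 24.5, 55.8, 51.8 and 130 CPM in the TBI + VH group, 91.6, 124, 71.7 and 125 CPM in Sham + CD and 31.5, 96.2, 33.8 and 132 CPM in TBI + CD. Here all Sham + CD libraries lay above all Sham + VH libraries, in a comparison where 9% of all tested genes did not overlap.

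Pmch at 3 dpi was 657, 627, 385 and 260 CPM in Sham + VH, 380, 331, 341 and 488 CPM in the TBI + VH group, 435, 509, 359 and 566 CPM in Sham + CD and 383, 321, 166 and 415 CPM in TBI + CD. At 29 dpi it was 472, 318, 269 and 349 CPM in Sham + VH, 268, 268, 320 and 544 CPM in the TBI + VH group, 389, 570, 451 and 569 CPM in Sham + CD and 277, 416, 246 and 617 CPM in TBI + CD. At 3 dpi the library with the most Hcrt in each group was also that with the most Pmch, and the group ranges overlapped at both time points.

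Oxt and Avp were steadier than Agrp, Npy and Hcrt, apart from single libraries. Oxt at 3 dpi was 165, 200, 255 and 96.2 CPM in Sham + VH, 218, 195, 266 and 156 CPM in the TBI + VH group, 238, 227, 228 and 178 CPM in Sham + CD and 83.4, 274, 267 and 212 CPM in TBI + CD. Avp in the same libraries was 447, 426, 324 and 85.2 CPM, 285, 349, 218 and 228 CPM, 384, 380, 253 and 291 CPM, and 316, 364, 344 and 270 CPM in the same order of groups. Sham + VH replicate 4 was the lowest library for Avp, Trh (95.3 CPM beside 126 to 172 CPM in the others) and, within its group, for Oxt and Crh (0.983 CPM beside 5.43 to 6.55 CPM). At 29 dpi the range of Oxt was 163 to 199 CPM among Sham + VH, 112 to 184 CPM among TBI + VH, 81.3 to 171 CPM in Sham + CD and 105 to 208 CPM in TBI + CD. Avp was 203 to 272, 199 to 317, 220 to 348 and 187 to 303 CPM in the same groups, which overlapped.

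**Figure D2:**
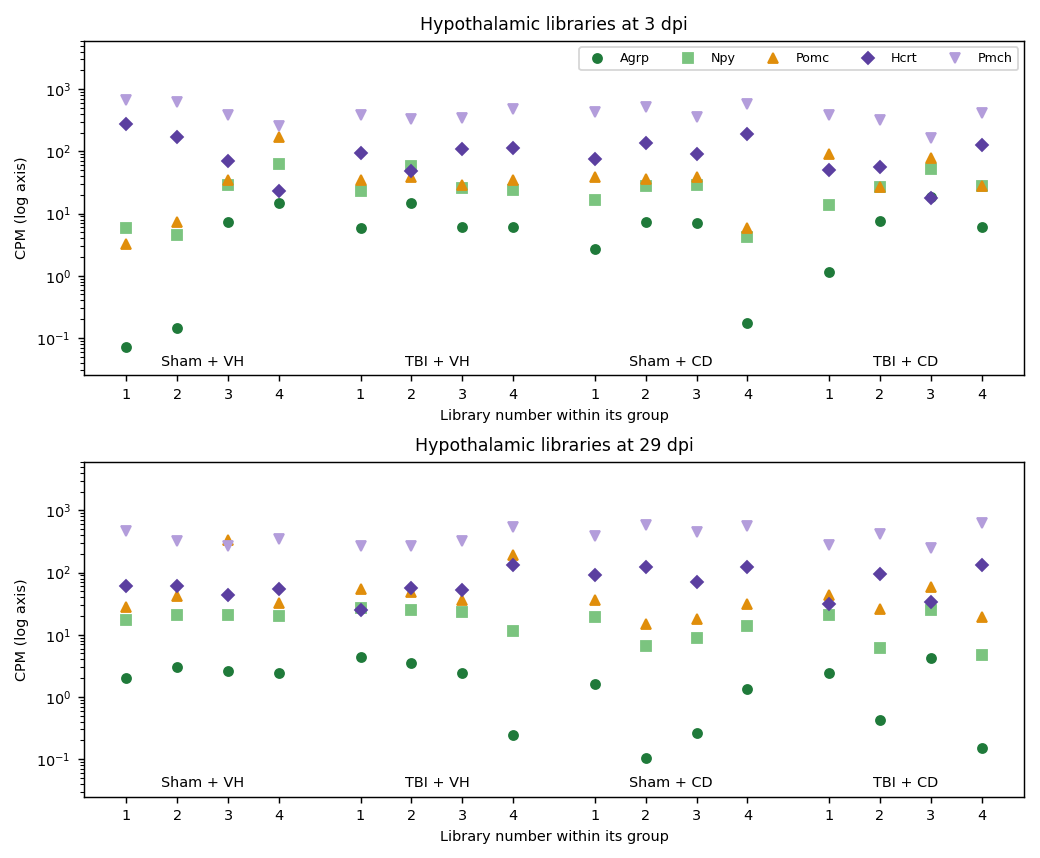
CPM of Agrp, Npy, Pomc, Hcrt and Pmch on a log axis in each of the 32 hypothalamic libraries, by group and replicate number, at 3 and 29 dpi. Agrp and Npy are low together in the same libraries (Agrp 0.0706 and 0.144 CPM in Sham + VH replicates 1 and 2 at 3 dpi).

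The main question of the study was whether injury and candesartan changed gene expression in each region. No hypothalamic neuropeptide gene passed the test in any injury, candesartan or interaction comparison. Over 42 comparisons (7 in each region and time point) 371 tests of members were made, and edgeR and DESeq2 each called 0. At an unadjusted p under 0.05 there were 32 tests by edgeR (8.63%) and 19 by DESeq2, where 7.34% of the tests of all genes were under it by edgeR. The lowest FDR was 0.0814, for Npy after injury in the hippocampus at 3 dpi. Against Sham + VH at 3 dpi, the share of all genes called in the hippocampus was 10.7% for TBI + VH, 1.5% for Sham + CD and 12.1% for TBI + CD, and in the thalamus 0.298%, 0% and 0.418%. At 29 dpi the hippocampal shares were 0.529%, 0% and 0.119%, and candesartan over sham and injured mice gave 0.00594%. The number of members that passed the filter on low counts was 10 in the hypothalamus, 9 in the thalamus and, in the hippocampus, 8 at 3 dpi and 7 at 29 dpi.

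In the hypothalamus the background itself was near 0. In the comparison of injured and sham mice over both drug arms, 0.0177% of 16946 genes were called at 3 dpi and 0.00583% of 17165 genes at 29 dpi. In the comparison of candesartan and vehicle it was 0% at both time points.

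The intervals of the hypothalamic differences ranged from narrow to very wide. After injury at 3 dpi, the log2 difference of Trh was -0.05 (95% interval -0.25 to 0.14) and that of Sst 0.13 (-0.09 to 0.35). That of Oxt was 0.09 (-0.37 to 0.56) and that of Avp -0.12 (-0.62 to 0.38). For Agrp it was 0.74 (-0.82 to 2.31) and for Pomc 0.13 (-1.14 to 1.39), so differences of 2-fold in either direction were not excluded by the spread between mice for Pomc, nor a rise of that size for Agrp. Pmch had the only unadjusted p under 0.05, by edgeR (-0.42 ± 0.20, unadjusted p = 0.0477, FDR = 0.665), where 7.33% of all genes had one, and with the ependymal genes as a covariate it was -0.10 ± 0.14. Hcrt was -0.75 ± 0.43 and Crh -0.61 ± 0.34.

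After injury at 29 dpi the log2 differences lay between -0.18 and 0.61. Oxt was 0.0001 (-0.33 to 0.33), Avp -0.04, Trh -0.05, Sst 0.04 (-0.09 to 0.17) and Pmch -0.18. Hcrt was -0.12 and Crh -0.17. Agrp was 0.61 ± 0.58, Npy 0.20 ± 0.31 and Pomc 0.07 ± 0.51. By edgeR no member had an unadjusted p under 0.05 here.

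Candesartan at 3 dpi gave log2 differences of at most 0.34 in size in the hypothalamus, and edgeR gave no member an unadjusted p under 0.05. At 29 dpi the differences were -1.66 ± 0.52 for Pomc (edgeR, unadjusted p = 0.00536, FDR = 0.574), -0.17 ± 0.06 for Sst (unadjusted p = 0.0133, FDR = 0.574), -1.09 ± 0.58 for Agrp, -0.65 ± 0.31 for Npy and 0.54 ± 0.31 for Hcrt. With the ependymal genes as a covariate they were -1.70, -0.12, -0.14, -0.27 and 0.17 in the same order. These were 2 of 10 members with an unadjusted p under 0.05, where 8.59% of all genes had one.

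Within the sham mice at 29 dpi, the 4 Sham + CD libraries did not overlap the 4 Sham + VH libraries for 2 of the 10 genes, Agrp (0.103 to 1.59 against 2.04 to 3.07 CPM) and Hcrt (71.7 to 125 against 43.9 to 61 CPM). Of all 17165 tested genes, 9% did not overlap in this comparison. The fitted differences were -1.65 ± 0.86 for Agrp and 0.91 ± 0.45 for Hcrt, and edgeR gave FDR = 0.407 and 0.389. Crh (0.56, unadjusted p = 0.0196), Sst (-0.24, unadjusted p = 0.0161) and Pomc (-2.17, unadjusted p = 0.0101) had FDR = 0.356 each by edgeR, and 13.2% of all genes had an unadjusted p under 0.05. In the same 2 groups the summed level of 10 ependymal and motile cilia genes, which mark the lining of the ventricle beside the arcuate nucleus, was 136, 33.4, 39.2 and 44.2 CPM in Sham + CD and 152, 187, 132 and 141 CPM in Sham + VH. With the ependymal genes as a covariate, which is itself related to Agrp and Npy, the differences were 0.21 ± 0.53 for Agrp, 0.17 ± 0.33 for Hcrt, -0.13 ± 0.08 for Sst, 0.57 ± 0.24 for Crh and -2.44 ± 0.78 for Pomc, and edgeR called 0 members. In the other 7 group comparisons of the hypothalamus, at 3 and 29 dpi, no member had groups that did not overlap, where 1.45% to 3.55% of all genes did.

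**Figure D3:**
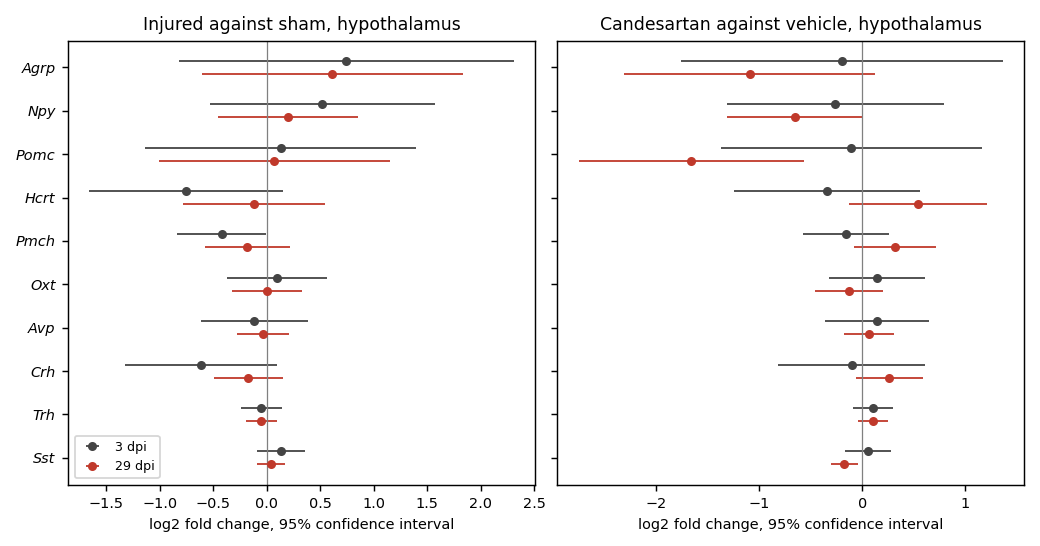
Log2 fold changes of the 10 genes in the hypothalamus for injury over both drug arms and for candesartan over sham and injured mice, at 3 and 29 dpi, with 95% intervals from the edgeR fit of 16 libraries. No gene passed the test; the intervals of Trh and Sst are narrow, and those of Agrp and Pomc span several log2 units.

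Pomc is also the defining gene of pituitary corticotrophs, so its level was set beside Gh, the growth hormone gene of pituitary somatotrophs. The 3 hypothalamic libraries with the most Pomc all held Gh. At 29 dpi Sham + VH replicate 3 had 338 CPM of Pomc and 66.2 CPM of Gh, and TBI + VH replicate 4 had 188 and 171 CPM. At 3 dpi Sham + VH replicate 4 had 172 and 291 CPM. The rule did not hold throughout, since TBI + CD replicate 3 at 3 dpi had 77.8 CPM of Pomc with no count of Gh, and Sham + CD replicate 2 at 29 dpi had 14.8 CPM of Pomc with 32.1 CPM of Gh. Over the 16 libraries of a time point, with group means subtracted, Pomc and the summed anterior pituitary genes did not pass the test, with r = 0.69 at 3 dpi (rho 0.59, adjusted permutation p = 0.0758 and 0.166) and 0.61 at 29 dpi (rho 0.44, adjusted permutation p = 0.0758 and 0.238), and 0.39 and 0.47 without the 2 farthest libraries.

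The rest of the hypothalamic Pomc values show how far single libraries stood apart. At 3 dpi Pomc was 3.25, 7.34, 34.1 and 172 CPM in Sham + VH, 35, 39, 28.8 and 34.4 CPM in the TBI + VH group, 38.5, 35.3, 38 and 5.88 CPM in Sham + CD and 90.1, 26.8, 77.8 and 27.2 CPM in TBI + CD. At 29 dpi it was 28.2, 42.4, 338 and 31.9 CPM in Sham + VH, 55, 48.3, 36.7 and 188 CPM in the TBI + VH group, 36, 14.8, 17.9 and 30.9 CPM in Sham + CD and 43.7, 26, 58.8 and 19.2 CPM in TBI + CD. The groups overlapped at both time points. The summed level of 9 anterior pituitary genes was 1.06 to 353 CPM over the hypothalamic libraries at 3 dpi (median 6.05) and 0.856 to 230 CPM at 29 dpi (median 4.6), and 2 of the defining markers, Gh and Prl, were at 0 in some libraries and up to 291 and 51.6 CPM in others.

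The size of the Pomc differences changed with the libraries and covariates fitted. The candesartan difference at 29 dpi (-1.66) was -0.28 (edgeR, unadjusted p = 0.197) without the libraries above 10 CPM of Gh, and -1.02 with the pituitary genes as a covariate. That of Sham + CD against Sham + VH (-2.17) was -0.03 and -1.30 in these fits, and TBI + CD against Sham + VH (-1.59) was 0.12 without Sham + VH replicate 3. The cut at 10 CPM of Gh removed libraries of every group, including Sham + VH replicate 3 and TBI + VH replicate 4, which had the most Pomc. Outside the hypothalamus Pomc was near 1 CPM at the median, and all 7 libraries above 5 CPM also held Gh. Hippocampal Sham + VH replicate 3 at 29 dpi had 100 CPM of Pomc and 222 CPM of Gh. Thalamic TBI + VH replicate 4 at 29 dpi had 96.8 CPM of Pomc and 62.2 CPM of Gh.

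**Figure D4:**
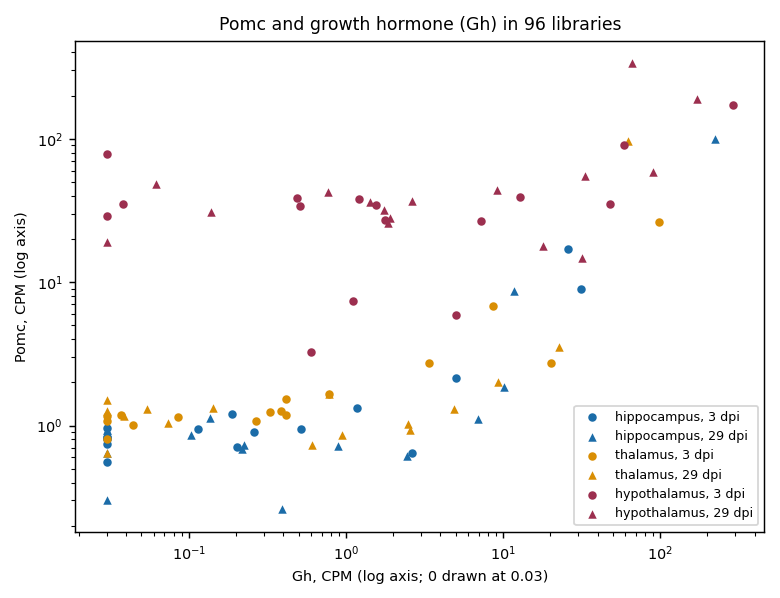
CPM of Pomc against CPM of Gh on log axes in the libraries of the 3 regions, with a count of 0 drawn at 0.03 CPM. In the hippocampus and thalamus Pomc is near 1 CPM except in libraries with Gh, such as 100 CPM of Pomc with 222 CPM of Gh; in the hypothalamus Pomc is above 10 CPM in most libraries with little Gh.

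The members were next compared with each other across the 16 hypothalamic libraries of a time point, after subtracting group means, with permutations within groups and p-values adjusted over 90 relations. At 3 dpi, 9 of 45 pairs passed an adjusted p of 0.05 (4 positive, 5 negative), and at 29 dpi 8 of 45 did (4 positive, 4 negative). No share over all pairs of genes was computed, so these counts were not set against a background. The 4 pairs that passed at both time points kept their sign. They were Agrp with Npy, Hcrt with Pmch, Agrp with Pmch and Npy with Pmch. Of these, Agrp with Pmch passed in 6 of 16 fits without 1 library at 3 dpi and in 13 of 16 at 29 dpi, and Npy with Pmch in 15 of 16 at 3 dpi. When single libraries were left out, 4 to 18 pairs passed at 3 dpi and 6 to 12 at 29 dpi.

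Hcrt and Pmch, made by neighboring but separate neurons of the lateral hypothalamus, rose and fell together between libraries. Pearson's r was 0.92 at 3 dpi (Spearman's rho 0.88, permutation p adjusted 0.0027 and 0.0131) and 0.87 at 29 dpi (rho 0.88, adjusted permutation p = 0.00784 and 0.0131). Without the 2 libraries farthest from the median of Pmch, r was 0.83 and 0.74. At 3 dpi Pomc ran against Hcrt, with r = -0.85 (rho -0.85, adjusted permutation p = 0.00821), and -0.69 without the 2 libraries farthest from the median of Pomc. Pomc also ran against Crh at 3 dpi, with r = -0.74 (rho -0.71, adjusted permutation p = 0.00315) and -0.54 without those 2, and it did not pass without Sham + VH replicate 2 (r = -0.71) or 4 (r = -0.48). Oxt was positively related to Agrp and Npy and negatively to Hcrt and Pmch at 29 dpi only among pairs that passed, a difference between time points that was not tested. The pair of Oxt and Hcrt (r = -0.67, rho -0.58) passed on r (adjusted permutation p = 0.0449) but not on ranks (adjusted 0.12), and on r it passed in 6 of 16 fits without 1 library, with an adjusted permutation p of up to 0.108.

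For the pairs of Agrp the libraries fell into separate clusters, 3 of 16 below 0.2 CPM at 3 dpi and 5 of 16 below 0.5 CPM at 29 dpi, so no pooled r is given for Agrp with another member over the libraries of a time point. Among the libraries with at least 1 CPM of Agrp, Agrp and Npy had r = 0.93 at 3 dpi (rho 0.97, n = 13, permutation p = 0.00239, adjusted 0.0717) and r = 0.79 at 29 dpi (rho 0.82, n = 11, permutation p = 0.00181, adjusted 0.0717). Without the 2 farthest libraries these were 0.93 and 0.78. Among the same libraries Npy and Pmch had r = -0.69 and -0.84 (permutation p = 0.0492 and 0.00857). Hcrt and Pmch had r = 0.86 and 0.46 (permutation p = 0.0078 and 0.102). No pair of the 45 passed the adjusted threshold in these smaller sets, with 6 and 4 at an unadjusted permutation p under 0.05.

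**Figure D5:**
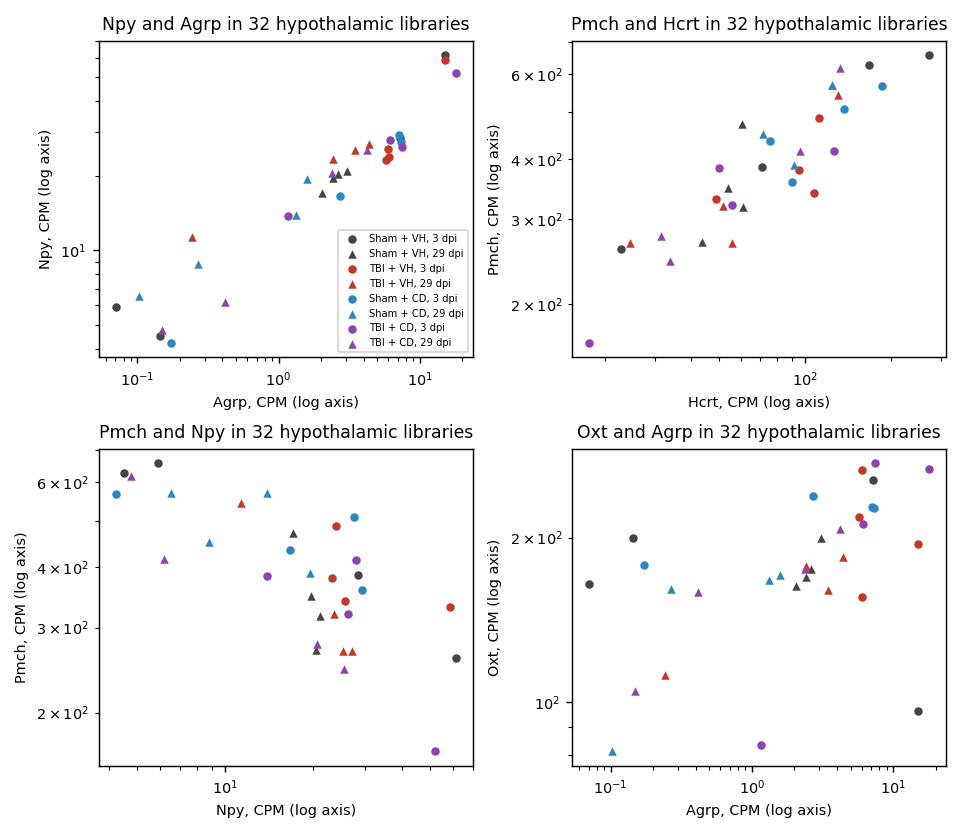
CPM on log axes of 4 pairs of genes (Npy and Agrp, Pmch and Hcrt, Pmch and Npy, Oxt and Agrp) in the 32 hypothalamic libraries, marked by group and time point. Npy is lowest in the libraries with the least Agrp, and Pmch is highest in libraries with much Hcrt and little Npy.

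The promoters of Hcrt and Pmch are shown because these 2 genes varied together. They are 150 bases of the RefSeq annotation on GRCm38.p6, from 120 bases before the start to 29 after it, and capitals mark the core promoter motif spelled TATAAA, which was searched on both strands. Hcrt lies at chr11:100762902-100763051 on the minus strand and Pmch at chr10:88090952-88091101 on the plus strand:
Hcrt: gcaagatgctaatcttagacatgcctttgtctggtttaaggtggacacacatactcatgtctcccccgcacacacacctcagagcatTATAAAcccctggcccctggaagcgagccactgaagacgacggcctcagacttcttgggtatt
Pmch: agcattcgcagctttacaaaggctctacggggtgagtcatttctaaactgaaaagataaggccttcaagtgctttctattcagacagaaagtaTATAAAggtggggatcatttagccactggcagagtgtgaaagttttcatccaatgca
Of 32851 RefSeq promoters of this length, 7.16% held these letters, and of the 8 matched promoters of members that of Pomc held them too. The promoter of Sst, the member with the least variation beside Trh, is given for comparison, with capitals on the letters TGACGTCA, a cyclic AMP response element that reads the same on both strands and was found in 1.44% of promoters (chr16:23890815-23890964, minus strand):
Sst: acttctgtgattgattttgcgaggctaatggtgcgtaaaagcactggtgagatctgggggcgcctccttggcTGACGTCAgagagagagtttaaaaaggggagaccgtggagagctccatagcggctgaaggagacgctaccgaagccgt

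Marker lists of other cell types moved with the same genes. In the 100 relations of members with 5 lists, added after seeing the data, 16 passed an adjusted permutation p of 0.05. No share over all genes was computed here either. The summed ependymal genes passed with Agrp at both time points, for which no pooled r is given. For Npy r was 0.86 at 3 dpi and 0.83 at 29 dpi (rho 0.80 and 0.85, adjusted permutation p = 0.0175 and 0.0035), and 0.84 and 0.74 without the 2 farthest libraries. At 29 dpi r was -0.84 for Pmch (rho -0.74, adjusted permutation p = 0.0175) and 0.79 for Oxt (adjusted permutation p = 0.00433, and rho 0.68, adjusted 0.0703), and -0.63 and 0.62 without those 2. The ependymal sum was 30.5, 32.5, 139 and 214 CPM in the 3 dpi Sham + VH libraries, so its lowest 2 values were those of the libraries with the least Agrp and the most Hcrt. The habenula list included Tac2, which is also among the listed hypothalamic neuropeptide genes. At 3 dpi the sum of this list was related to Hcrt (r = 0.83, adjusted permutation p = 0.0222, and rho 0.74, adjusted 0.0554) and Pmch (r = 0.85, adjusted permutation p = 0.0105, and rho 0.86, adjusted 0.023), with r = 0.65 and 0.77 without the 2 farthest libraries. The summed choroid plexus genes at 3 dpi were related to Hcrt with r = -0.82 (rho -0.86), to Pmch with -0.76 (rho -0.78), to Pomc with 0.77 (rho 0.76) and to Npy with 0.80 (rho 0.81), with adjusted permutation p = 0.0146 for Hcrt and 0.0175 for the others, and they passed with Agrp too. Without the 2 farthest libraries these were -0.74, -0.70, 0.74 and 0.71. Their sum ran from 31.2 to 58.2 CPM over the hypothalamic libraries of 3 dpi. Crh at 3 dpi ran against the summed anterior pituitary genes (r = -0.82, rho -0.68, adjusted permutation p = 0.0444), with r = -0.59 without the 2 farthest libraries. Npy at 3 dpi ran against the summed thalamic neuron markers (r = -0.53, adjusted permutation p = 0.049, and rho -0.61, adjusted 0.0552), with r = -0.41 without the 2 farthest libraries, and Agrp passed with them too. The part of the dissection in the pairs of members was not tested.

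By the fixed rule of likeness, the 3 genes with the highest correlation to each member were named, over 32 hypothalamic libraries and 15138 genes, as a description. For Agrp, over its separate clusters of libraries, they were Npy (0.97), Crabp1 (0.96) and 4732456N10Rik (0.95). For Npy they were Agrp, Crabp1 (0.94) and Col23a1 (0.92). For Hcrt they were Paqr4 (0.96), Npas1 (0.96) and Bin1 (0.95), and for Pmch Evi2a (0.95), Enpp2 (0.94) and Ermn (0.94), of which Ermn is a cytoskeletal gene of oligodendrocytes. Those of Pomc were Fndc9 (0.83), Tbx19 (0.81) and Mttp (0.77), and Tbx19 is the transcription factor of pituitary corticotrophs. Tbx19 was highest, at 4.2 CPM, in Sham + VH replicate 4 at 3 dpi, which had 291 CPM of Gh. It was 3.17 CPM in TBI + CD replicate 3 at 3 dpi with no count of Gh. In TBI + VH replicate 4 at 29 dpi it was 0.943 CPM with 171 CPM of Gh. The source of Tbx19 was not tested. Those of Crh were Ucn3 (0.84), Asic4 (0.81) and Gfra1 (0.78), and Ucn3 encodes urocortin 3, a ligand of the type 2 Crh receptor. Avp and Trh were nearest to each other (0.81), although this pair passed the test of pairs at neither time point. Oxt was nearest to Reln (0.80) and Sst to Cfap53 (0.78), a cilia gene. The 32 libraries and their dissections are shared by all these correlations.

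In the thalamus the level of the hypothalamic genes differed widely between libraries. At 3 dpi Oxt was 92.9 and 99.4 CPM in Sham + VH replicates 3 and 4, 87.4 CPM in TBI + VH replicate 4 and 37.9 CPM in TBI + CD replicate 1, and at most 15.4 CPM in the other 12. The same 4 libraries had the most Sim1 (6.03, 10.6, 9.05 and 6.49 CPM, beside at most 2.74 CPM), a transcription factor of the paraventricular nucleus. Thalamic TBI + CD replicate 3 had 0.432 CPM of Oxt, 0.0432 CPM of Hcrt and 3.59 CPM of Pmch, the lowest of each.

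Over the pairs of 9 members in the thalamus, a set added after seeing the data, 10 of 36 passed at 3 dpi and 8 of 36 at 29 dpi, all positive. No share over all pairs of genes was computed beside these counts. Hcrt and Pmch had r = 0.91 and 0.95 (rho 0.89 and 0.93, adjusted permutation p = 0.00713 and 0.0012), and 0.89 and 0.91 without the 2 libraries farthest from the median of Pmch. By edgeR no member was called for injury or candesartan in the thalamus, where 0.907% of 16762 genes were called for injury at 3 dpi and 0% at 29 dpi. The candesartan difference of Oxt at 3 dpi was -1.82 ± 0.73 (edgeR, unadjusted p = 0.0236, FDR = 0.676) and -0.83 without TBI + VH replicate 4, and the 2 highest Oxt libraries were both Sham + VH.

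In the hippocampus, the region nearest the impact, 15.8% of 16756 genes were called for injury at 3 dpi and 1.62% of 16832 at 29 dpi. Of the members tested there edgeR called none, and 2 of 8 had an unadjusted p under 0.05 for injury at 3 dpi, where 45% of all genes had one. These were the 2 abundant interneuron peptides, Npy with a log2 difference of 0.13 ± 0.06 (edgeR, unadjusted p = 0.0336, FDR = 0.0814) and Sst with -0.19 ± 0.09 (unadjusted p = 0.0487, FDR = 0.109). For candesartan at 3 dpi, 2 of 8 members had an unadjusted p under 0.05, beside 6.99% of all genes. Trh had -0.71 ± 0.22 (edgeR, unadjusted p = 0.00499, FDR = 0.513), at levels of 0.289 to 1.12 CPM, and Oxt -1.20 ± 0.56 (unadjusted p = 0.0465, FDR = 0.707), and -0.76 without TBI + VH replicate 2. In the same region and time point the median sum of choroid plexus genes was 4682 CPM in Sham + VH (210 to 6983), 84.5 CPM in Sham + CD, 71.6 CPM in TBI + VH and 111 CPM in TBI + CD, and that of ependymal genes 77, 40, 69.5 and 47.4 CPM. With choroid plexus genes as a covariate the differences were -0.62 for Trh (edgeR, unadjusted p = 0.0267) and -0.67 for Oxt (unadjusted p = 0.28), and neither was called. Within the sham mice, Sham + CD against Sham + VH gave 3 of 8 members an unadjusted p under 0.05, where 15% of all genes had one. These were Oxt (-2.16), Avp (-1.73) and Trh (-0.71), and the lowest FDR of a member was 0.225 by edgeR. Crh in TBI + CD (0.864 to 1.19 CPM) did not overlap TBI + VH (1.22 to 1.79 CPM) at 3 dpi, where 2.72% of all genes did not overlap.

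The time points were compared within each region over all 4 arms. They differ in cohort, age at death, drug route and deposited table as well as in days after injury, which cannot be told apart. In the hypothalamus Agrp was lower at 29 dpi by edgeR, with a log2 difference of -1.86 ± 0.52 (95% interval -2.92 to -0.80, FDR = 0.00653). It was the only member called of 10, beside 3.39% of 17364 genes called and 1.73% called lower, and it was called in all 32 fits that left out 1 library (-2.09 to -1.57). Within Sham + VH alone the difference was -1.17 (edgeR, FDR = 0.622), where 2 of the 4 libraries at 3 dpi were near 0.1 CPM. The median was 6.11 CPM at 3 dpi and 2.22 CPM at 29 dpi, and the ranges overlapped.

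The other hypothalamic differences between time points did not pass by edgeR: Npy -0.69 ± 0.31 (FDR = 0.0963), Oxt -0.35 ± 0.14 (FDR = 0.0668) and Avp -0.29 ± 0.14 (FDR = 0.116). Npy was called when any one of 3 libraries of 3 dpi low in Npy was left out, which were replicates 1 and 2 of Sham + VH and replicate 4 of Sham + CD, and Avp and Oxt without 3 dpi Sham + VH replicate 4. Oxt was also called without 3 dpi TBI + CD replicate 1 or 29 dpi TBI + CD replicate 3. Trh (0.06, interval -0.07 to 0.18) and Sst (-0.08, interval -0.21 to 0.05) had the narrowest intervals.

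In the thalamus Oxt was lower at 29 dpi by edgeR (-1.98 ± 0.52, FDR = 0.00391), the only member of 9 called beside 4.61% of genes (2.49% lower), and it was called in all 32 fits without 1 library (-2.36 to -1.49). At 29 dpi the highest thalamic Oxt library was at 16.4 CPM. In the hippocampus Pmch was higher at 29 dpi (1.23 ± 0.43, FDR = 0.0196 by edgeR), 1 of 8 members called beside 12.9% of genes (4.78% higher). Its medians were 0.359 and 0.639 CPM, and the call was lost without 29 dpi Sham + VH replicate 3 (0.87, FDR = 0.113), TBI + VH replicate 1 (0.78, FDR = 0.102) or Sham + CD replicate 4 (1.0, FDR = 0.0764). Within Sham + VH alone edgeR and DESeq2 called 0 members in the hippocampus, beside 4.16% of all genes by edgeR, and 3 of 8 had an unadjusted p under 0.05 by edgeR and 2 by DESeq2, where 25.2% of all genes had one by edgeR. The injury difference at 29 dpi minus that at 3 dpi was called for no member in any region by edgeR or DESeq2, where the share of all genes called by edgeR was 0.00576% for hypothalamus, 0.0175% for thalamus and 8.39% for hippocampus, and edgeR gave an unadjusted p under 0.05 to 1 of them, Pomc in the thalamus.

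The machinery around these peptides was followed in lists of related genes. Of 19 tested receptors and binding proteins of the members (of 20 listed), edgeR called 0 for injury or candesartan in the hypothalamus, and the list's median log2 difference for injury at 3 dpi was -0.01, beside -0.0005 over all genes. Hcrtr2, a receptor for orexins, was 0.28 ± 0.07 higher after injury at 3 dpi (edgeR, unadjusted p = 0.00145, FDR = 0.533), the only one of these genes with an unadjusted p under 0.05. Mchr1, the Pmch receptor, ranged from 12.4 to 15.1 CPM at 3 dpi. Npy1r, Npy2r and Sstr1 had medians of 19.5, 25.5 and 34.9 CPM.

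All 10 listed genes of prohormone processing were tested and 0 called. Cpe, the carboxypeptidase that trims cut precursors, was the most abundant, with 1542 to 1924 CPM at 3 dpi and 1676 to 2008 CPM at 29 dpi, and its injury differences were 0.003 ± 0.04 and 0.07 ± 0.04. Pam, the enzyme that amidates peptides such as oxytocin, vasopressin and Trh, had a candesartan difference of -0.12 ± 0.05 at 29 dpi (edgeR, unadjusted p = 0.0304, FDR = 0.574). The granule proteins Scg2 and Pcsk1n had medians of 1181 and 436 CPM at 3 dpi.

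Of 24 other hypothalamic neuropeptide genes 23 were tested in the hypothalamus and 0 were called by edgeR. None had an unadjusted p under 0.05 for injury at either time point. Vgf (median 263 CPM at 3 dpi), Penk (103 CPM), Adcyap1 (88.8 CPM) and Cartpt (68.7 CPM) were the most abundant. Cartpt, which arcuate Pomc neurons also express, ranged from 54.4 to 92.4 CPM at 3 dpi, a far narrower range than that of Pomc. Ucn3 had a candesartan difference of 0.29 ± 0.12 at 29 dpi (edgeR, unadjusted p = 0.0327, FDR = 0.574).

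Of 14 transcription factors of hypothalamic nuclei 0 were called. Fezf1, a factor of the ventromedial nucleus, had 0.30 ± 0.14 for injury and 0.33 ± 0.14 for candesartan at 3 dpi (edgeR, unadjusted p = 0.0435 and 0.0264, FDR = 0.665 and 1). Of 8 glucocorticoid response genes, which the stress axis below Crh acts on, 0 were called, and 2 had an unadjusted p under 0.05 for injury at 29 dpi, where 2.94% of all genes had one. Sgk1 was 0.80 ± 0.21 higher (unadjusted p = 0.00183, FDR = 1 by edgeR) and Per1 0.23 ± 0.07 higher (unadjusted p = 0.00426, FDR = 1). Nr3c1, the glucocorticoid receptor, had 0.08 ± 0.05 at 3 dpi and 0.05 ± 0.04 at 29 dpi.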

How the data were processed

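Polyadenylated RNA of the ipsilateral hippocampus, thalamus and hypothalamus was sequenced as paired-end 75-base reads from stranded libraries of 4 mice per group. Per the labels and the study's methods, the authors aligned reads to mm10 with MapSplice, counted them per gene with HTSeq 0.9.1 and used DESeq2 1.16.1. They deposited 2 tables of raw counts, 1 for each time point. The annotation and the handling of strand and of reads with several matches are not given in the sources used here. Symbols were stripped of spaces before matching, and every count column was matched to a sample by its name.

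From the deposited counts, edgeR 4.0.16 (limma 3.58.1, R 4.3.3) was fitted with TMM scaling, its filter on low counts and the quasi-likelihood F test, two-sided, over all genes, with Benjamini-Hochberg adjustment. A gene was called at FDR under 0.05 with an absolute log2 fold change above 0.32. One fit held the 16 libraries of a region and time point (injury, candesartan), another the 48 libraries of a time point (regions, within Sham + VH), and another the 32 libraries of a region (time). Alternatives were DESeq2 1.42.0, other scaling, no filter, only the compared groups, a replicate block, covariates for other cell types and each library left out. Pairs used log2 CPM with a prior count of 2, group means subtracted, and 100000 permutations within groups. Figures were drawn with matplotlib 3.10.9, and pandas 2.3.3, numpy 2.4.6 and scipy 1.17.1 ran under Python 3.11.15. Scripts were tested on simulated data.

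The members and lists were chosen with earlier results of these data known, so no test here is independent of them. All 10 members were named, and with each the 3 genes of highest correlation in the hypothalamus among genes of at least 1 CPM on average. From the other lists, genes called in the hypothalamus were to be named, or otherwise up to 4 of the highest mean level, and genes with an unadjusted p under 0.05 were added after their values were seen. The libraries of a group are separate mice, and the labels do not tie a mouse's 3 regions together. Pairs of libraries within a group (144) differed by more than counting noise, with a chi-square per degree of freedom of 2.64 to 48.1. A level of 0 counts allows up to 3 counts, for counting error only. Sequences are from RefSeq (GRCm38.p6; 8 of the 10 promoters matched) and from the mm10 annotation.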

Additional observations from a re-analysis of the deposited data

Results flagged for a closer look

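In 27 groups of 4 libraries (13.4% of those tested), 1 library lay far from the other 3 on a log scale by Dixon's test, where chance gives about 1 in 20. Of these, 9 concerned Pomc. The libraries with high Pomc were hippocampal Sham + VH replicate 4 (8.93 CPM) and TBI + CD replicate 1 (17.0 CPM) at 3 dpi, thalamic Sham + VH replicate 4 (26.3 CPM), TBI + VH replicate 2 (2.75 CPM) and TBI + CD replicate 1 (6.84 CPM) at 3 dpi, hippocampal TBI + VH replicate 3 (8.66 CPM) at 29 dpi, thalamic TBI + VH replicate 4 (96.8 CPM) at 29 dpi and hypothalamic Sham + VH replicate 3 (338 CPM) at 29 dpi. Hypothalamic Sham + CD replicate 4 at 3 dpi was low (5.88 CPM). The high ones all held Gh, from 8.65 CPM in thalamic TBI + CD replicate 1 to 97.8 CPM in thalamic Sham + VH replicate 4. The part of pituitary tissue in these values was not tested.

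Hypothalamic Sham + CD replicate 4 at 3 dpi was also low for Oxt (178 CPM) and Sst (97.9 CPM), and hypothalamic Sham + VH replicate 4 at 3 dpi was low for Crh (0.983 CPM) and Trh (95.3 CPM). Hypothalamic TBI + VH replicate 2 at 3 dpi was high for Agrp (15.01 CPM) and Npy (58.8 CPM), and TBI + VH replicate 4 high for Sst (154 CPM). At 29 dpi hypothalamic Sham + CD replicate 2 was low for Oxt (81.3 CPM), TBI + VH replicate 4 low for Npy (11.3 CPM) and TBI + VH replicate 2 low for Trh (126 CPM).

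In the thalamus, Crh was low in Sham + VH replicate 2 (0.837 CPM) and Trh high in TBI + VH replicate 4 (44.7 CPM) at 3 dpi, and at 29 dpi Hcrt was low in Sham + CD replicate 1 (4.62 CPM) and Pmch in TBI + VH replicate 1 (18.6 CPM). In the hippocampus, Sst in TBI + CD replicate 2 (195 CPM) at 3 dpi stood apart, as did Npy in TBI + VH replicate 3 (99.6 CPM), Pmch in TBI + VH replicate 1 (5.45 CPM) and Trh in TBI + VH replicate 2 (15.7 CPM) at 29 dpi.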

How the results depend on the processing

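The 0 calls for injury, candesartan and their interaction were kept in all fits but 1: with choroid plexus genes as a covariate, 1 member was called in the hippocampus at 29 dpi for TBI + VH against Sham + VH, Pomc (-4.15, edgeR FDR = 0.0305). Between hypothalamus and thalamus at 3 dpi, 3 members instead of 8 were called with only the compared groups fitted. Leaving out single libraries gave 8 to 10 members called for hypothalamus against hippocampus at 3 dpi and 8 to 9 at 29 dpi, 6 to 8 and 8 to 9 for hypothalamus against thalamus, and 7 to 8 and 6 to 8 for thalamus against hippocampus. Between time points it gave 1 to 3 in the hypothalamus, 0 to 3 in the hippocampus and 1 to 3 in the thalamus over all arms, 0 to 2, 0 to 1 and 0 to 1 within Sham + VH, and 0 to 1 for the injury difference between time points in the hippocampus (Npy). DESeq2 called 2 members in the hippocampus over all arms (Pmch and Trh) and 1 in the thalamus within Sham + VH (Oxt), and gave Trh no adjusted p between regions at 29 dpi. Pairs numbered 20 and 16 at 3 and 29 dpi without centring by group, 0 and 0 in libraries with at least 1 CPM of Agrp, 4 at 3 dpi without the 2 farthest libraries, and 4 to 18 and 6 to 12 without single libraries.

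The direction turned mainly for Pomc; the cause was not tested. In the hippocampus at 3 dpi its interaction was -1.27 with the choroid plexus covariate. Ranges over fits without 1 library follow. In the thalamus at 3 dpi, TBI + VH against Sham + VH ran from -2.71 to 0.43 and Sham + CD from -2.66 to 0.43 (highest without Sham + VH replicate 4), and Sham + CD was 0.19 with the pituitary covariate. In the hippocampus at 29 dpi, TBI + VH ran from -5.14 to 1.83, Sham + CD from -5.39 to 0.26 and TBI + CD from -5.11 to 0.54 (highest without Sham + VH replicate 3), and the pituitary covariate gave 0.34 for TBI + VH and 0.049 for Sham + CD. In the thalamus at 29 dpi, TBI + VH ran from -0.27 to 4.75, and TBI + CD against TBI + VH from -4.36 to 0.84 (-0.27 and 0.84 without TBI + VH replicate 4). At 29 dpi, without Sham + VH replicate 3 of the hypothalamus or hippocampus, TBI + CD in the hypothalamus reached 0.12 (from -1.92) and thalamus against hippocampus 0.60 (from -5.00). Hippocampal Trh in TBI + CD against TBI + VH at 29 dpi ran from -2.998 to 0.12, the latter without TBI + VH replicate 2.

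The replicate numbers were not taken to pair the samples, since in no set did every same-numbered pair of libraries correlate above 0.1. Within a region and time point, 4 of 24 such pairs (hippocampus at 3 dpi) to 15 of 24 (thalamus at 3 dpi, median 0.13 beside -0.03 for other pairs) did, with 8 and 11 in the hypothalamus at 3 and 29 dpi (-0.62 to 0.51 and -0.29 to 0.71). Between regions 14 of 48 and 22 of 48 did. With the replicate number as a block, 139 of 140 values and counts kept their call and direction, and the time difference of Agrp was -1.79 (FDR = 0.0141 by edgeR). RLE scaling kept 159 of 159, the filter 139 of 140 and DESeq2 133 of 140. Depth limits Agrp and Hcrt outside the hypothalamus, where several libraries held 0 to 3 counts. In the hippocampus the lowest library held 0 to 3 counts of Oxt, Avp and Pmch at both time points. At 29 dpi the lowest held 2 counts of Trh and of Pomc. In the hypothalamus the lowest Agrp library held 2 counts at 3 dpi and 3 at 29 dpi.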

Other observations

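In the candesartan comparison of the hypothalamus at 29 dpi, 8.59% of all genes had an unadjusted p under 0.05 by edgeR and none was called. Of 9 thalamic neuron markers 2 had one, Prkcd (0.72 ± 0.24, FDR = 0.574) and Tnnt1 (1.03 ± 0.43, FDR = 0.574), with a median log2 difference of 0.17 over the list, beside 0.0001 over all genes. The median sum of these markers was lower in Sham + CD (509 CPM) than in Sham + VH (549.8 CPM) and higher in TBI + CD (634 CPM) than in TBI + VH (501.9 CPM), differences that were not tested. Of the transcription factors Tbx3, a gene of arcuate neurons, had -0.86 ± 0.38 (FDR = 0.574). Ttr, the transthyretin gene of the choroid plexus and 1 of 8 tested genes of that list with an unadjusted p under 0.05, had 1.97 ± 0.64 (FDR = 0.574) for candesartan and -1.52 ± 0.64 (FDR = 1) for injury. The summed choroid plexus genes ran from 36.8 to 208 CPM over the hypothalamic libraries at 29 dpi, with a median of 43.4 CPM. The part of single libraries in the Ttr differences was not tested.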
